A study of Homo sapiens with 4 samples.

Results

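The antisense RNAs expressed in HCT116, a long-established cell line from a human colorectal tumour, were followed with their partner genes between cells in which C14orf159 had been knocked out (KO, 2 libraries) and empty vector control cells (EV control, 2 libraries). C14orf159, also called DGLUCY, encodes a protein of the mitochondrial matrix, and the series asks what its loss does in this line. The columns of the KO libraries carry the name sgDGLUCY and those of the controls the name AAVS1, a neutral genomic site, so the labels and the file headers describe the control differently. All 4 libraries came from the same parental line, and the sources used here do not say whether replicates of a group were separate cultures or clones, so every p-value rests on the spread among these 4 libraries, which may be technical. Antisense RNAs were chosen by symbol, ending in -AS and 1 digit, and by measured level, at least 1 FPKM in at least 2 of the 4 libraries. FPKM counts fragments per kilobase of transcript, scaled to the depth of the library, and is the only unit deposited. Of 979 such symbols among 26255 listed genes, 247 met this rule. The partner of each is the gene named before the ending, and 242 of the 247 had a partner row, for 236 different partner genes.

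Natural antisense RNAs are transcribed from the strand opposite to a protein-coding gene. Many start at or near the partner's promoter and run away from it, others cross the partner's end or lie within its introns. Some are known to act on the partner gene in cis, by their transcription or by the RNA, others act elsewhere in the cell, and for most no role is known. They are commonly spliced, less abundant than mRNAs, and turned over in the nucleus by the RNA exosome.

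The names did not always describe the genes. In RefSeq 243 of the 247 were found, 236 of them as long non-coding RNA and 4 as protein-coding genes (FAM83H-AS1, MMP24-AS1, NCBP2-AS2 and TOPORS-AS1), and 32 now carry the ending -DT, for divergent transcript. In GENCODE release 29, 236 pairs had exons for both genes, and 116 of them lay head to head, 55 tail to tail and 65 with one gene inside the other. An exonic base was shared by 161 pairs and by none of the other 75. The libraries came from a kit that keeps the strand, but the sources used here do not say whether strand was used in counting. If it was not, fragments of an antisense RNA and of a gene on the other strand could not be told apart where exons overlap. Exons of 182 of the 247 overlapped those of some gene on the other strand, with at least 50% of the exonic bases in 24.

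The promoters of several pairs are shown because the results return to these pairs. RefSeq windows of 300 bases (250 before the start and 50 after it, build GRCh38.p14) were available for 190 antisense RNAs and 195 partners. Among 166 pairs with windows for both on opposite strands, 51 had windows that overlapped, by 38 to 294 bases. The windows held a median of 24 CpG in antisense RNAs and 27 in partners, against 14 over 35116 windows. The motif GATAA, searched on both strands, was in 12.6% of the antisense windows, 15.4% of the partner windows and 22.7% of all windows. TATAAA was in 5.79%, 7.69% and 11.5%, on the same 3 sets. The starts of GATA2-AS1 and GATA2 lie 673 bases apart, their windows share no base, and neither motif occurs in either, so both are in lower case. In the other windows, capitals mark the bases shared with the partner's window, 208 for FOXD3-AS1, 229 for SRP14-AS1 and 145 for COX10-AS1. All read 5′ to 3′ on the strand of the named gene.
GATA2-AS1, chr3:128488953-128489252, plus strand: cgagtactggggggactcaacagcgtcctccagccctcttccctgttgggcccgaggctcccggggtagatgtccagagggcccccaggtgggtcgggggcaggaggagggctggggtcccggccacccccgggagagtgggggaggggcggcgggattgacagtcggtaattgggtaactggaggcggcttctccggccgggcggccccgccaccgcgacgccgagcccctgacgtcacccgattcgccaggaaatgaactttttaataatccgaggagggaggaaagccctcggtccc
GATA2, chr3:128488481-128488780, minus strand: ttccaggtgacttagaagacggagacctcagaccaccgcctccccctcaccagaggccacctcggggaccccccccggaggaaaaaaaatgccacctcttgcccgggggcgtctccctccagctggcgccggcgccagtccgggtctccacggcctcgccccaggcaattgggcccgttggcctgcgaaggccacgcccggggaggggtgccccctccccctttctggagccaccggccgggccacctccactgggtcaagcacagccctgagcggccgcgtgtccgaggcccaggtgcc
FOXD3-AS1, chr1:63322409-63322708, minus strand: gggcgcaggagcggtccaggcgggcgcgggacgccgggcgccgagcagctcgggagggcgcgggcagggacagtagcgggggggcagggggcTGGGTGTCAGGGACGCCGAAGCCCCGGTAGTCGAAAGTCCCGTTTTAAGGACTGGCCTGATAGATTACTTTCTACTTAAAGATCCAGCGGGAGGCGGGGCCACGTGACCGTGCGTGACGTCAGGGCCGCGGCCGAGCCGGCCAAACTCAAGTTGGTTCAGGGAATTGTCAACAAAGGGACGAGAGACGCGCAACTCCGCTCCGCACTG
SRP14-AS1, chr15:40039061-40039360, plus strand: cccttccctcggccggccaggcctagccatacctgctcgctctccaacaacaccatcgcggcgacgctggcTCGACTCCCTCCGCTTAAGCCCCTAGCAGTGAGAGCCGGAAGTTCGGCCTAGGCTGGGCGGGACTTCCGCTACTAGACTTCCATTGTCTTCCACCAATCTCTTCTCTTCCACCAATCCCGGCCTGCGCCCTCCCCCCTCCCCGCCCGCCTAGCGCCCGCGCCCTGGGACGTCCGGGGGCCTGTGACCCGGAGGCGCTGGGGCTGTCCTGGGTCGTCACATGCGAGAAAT
COX10-AS1, chr17:14069409-14069708, minus strand: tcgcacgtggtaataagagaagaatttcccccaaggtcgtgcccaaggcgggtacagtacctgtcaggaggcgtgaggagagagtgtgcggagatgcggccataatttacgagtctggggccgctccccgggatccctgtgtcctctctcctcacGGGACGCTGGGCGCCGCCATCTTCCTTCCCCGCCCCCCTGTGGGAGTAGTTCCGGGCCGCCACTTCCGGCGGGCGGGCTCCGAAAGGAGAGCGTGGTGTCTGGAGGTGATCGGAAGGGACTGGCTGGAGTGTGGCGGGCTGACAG

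C14orf159 itself stood at 2.52 and 10.8 FPKM in the KO libraries, against 16.2 and 16.4 FPKM in the EV control libraries. It was lower in both KO libraries, at 15.5% and 66.2% of the control mean, and the KO libraries lay further apart than the controls did. On the log2(FPKM + 1) scale, used for all differences here, the KO minus EV difference was -1.42 (SE 0.567, limma-trend adjusted p = 0.314, from 0.000517 to 0.9996 over 14 other settings). It was -0.55 without KO replicate 1 (adjusted p = 0.0150) and -2.30 without KO replicate 2 (adjusted p = 0.000517). The epithelial markers EPCAM, KRT8, KRT18, KRT19 and CDH1 summed to 3342 to 3704 FPKM in KO and 3362 to 3535 FPKM in EV control libraries. Fibroblast and endothelial markers summed to at most 0.198 and 0.135 FPKM, and the 5 immune markers to 2.06 and 3.004 FPKM in KO and 2.68 and 1.93 FPKM in EV control libraries. Most of the immune sum was CD68, at 1.88 to 2.87 FPKM over the libraries, while PTPRC and CD3E were at 0 in every one. The part of these markers in the results was not tested. In such bulk libraries fewer cells with an RNA and less of it per cell cannot be told apart. FPKM tables hold no counts. From the steps between low values, depth was estimated roughly, with 1 fragment on a transcript of 1 kilobase worth 0.0747 to 0.0802 FPKM. This gives a median of 34.9 fragments per library on a member (quartiles 18.5 and 81.3).

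Most of the antisense RNAs were low. The mean over the 4 libraries ranged from 0.856 to 1244 FPKM with a median of 2.79 FPKM, and 84 of the 247 lay under 2 FPKM. The median was 11.5 FPKM over partner genes with a row and 11.1 FPKM over the 12701 genes tested. In 176 of 242 pairs the antisense RNA was the lower of both, and the median ratio of antisense RNA to partner was 0.303. The ratio compares FPKM, a level per length. The level rule was passed in all 4 libraries by 198 members, in 3 by 31 and in 2 by 18. Of those 18, 3 passed in the KO libraries alone and 10 in the EV control libraries alone, so these 13 had to differ between the groups. They are CBR3-AS1, HOXB-AS1 and TM4SF19-AS1, higher in KO, and C8orf37-AS1, CA3-AS1, CCDC183-AS1, DIAPH3-AS1, ID2-AS1, PPP1R26-AS1, PRR7-AS1, RASSF1-AS1, RNF139-AS1 and SLC25A21-AS1, lower in KO. Their differences are descriptions, given with no test of their own, though the later counts over the 247 include them. Just inside the rule were WDFY3-AS2, ST3GAL6-AS1 and DIAPH3-AS1, whose second highest libraries had 1.01, 1.04 and 1.04 FPKM. Just outside were OSGEPL1-AS1, HECTD2-AS1 and MATN1-AS1, at 0.970, 0.983 and 0.987 FPKM.

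**Figure D1:**
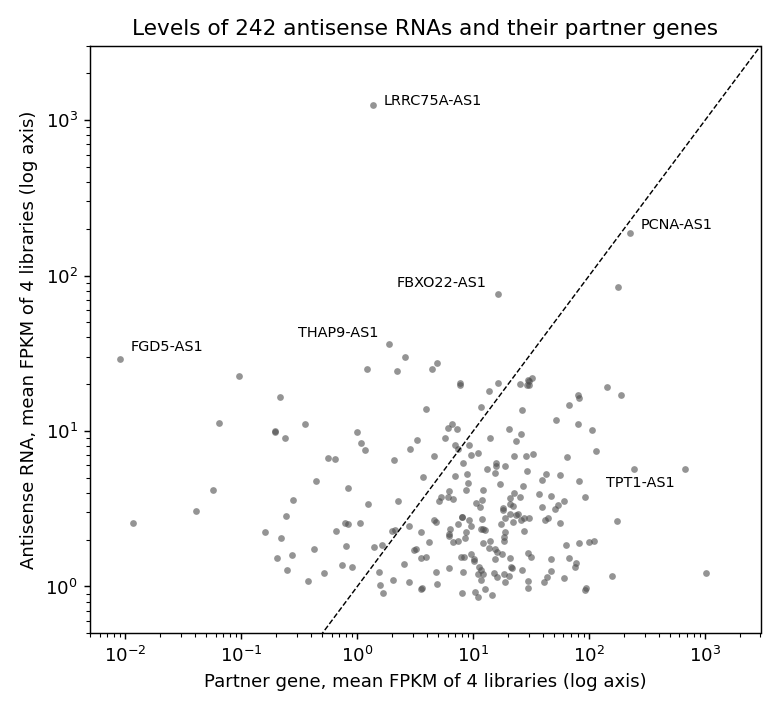
Mean level of 242 antisense RNAs (vertical axis, FPKM, log scale) against that of their partner genes (horizontal axis, FPKM, log scale), over 4 libraries. Each point is 1 pair and the dashed line marks equal levels. 66 points lie above the line, with LRRC75A-AS1 at 1244 FPKM the highest.

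The 8 most abundant antisense RNAs included several that were higher than a nearly silent partner. LRRC75A-AS1 is the host gene SNHG29, which carries small nucleolar RNAs in its introns. It had 1260 and 1267 FPKM in KO and 1253 and 1196 FPKM in EV control libraries, so the KO libraries lay above both controls by less than the controls lay apart. The difference was 0.05 (SE 0.116, limma-trend adjusted p = 0.862), and with quantile normalization it turned to -0.013. Its partner LRRC75A had 1.28 and 2.26 FPKM in KO and 1.05 and 0.856 FPKM in EV control libraries. FGD5-AS1 had 30.3 and 21.9 FPKM in KO libraries, against 31.8 and 32.8 FPKM in EV controls, while FGD5 was listed at 0 in both KO libraries and at 0.0241 and 0.0117 FPKM in the controls. FGD5-AS1 was below both controls in each KO library, and KO replicate 2 was the lowest.

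PCNA-AS1 lies opposite PCNA, the sliding clamp of DNA replication. Its level was 158 and 185 FPKM in KO and 210 and 197 FPKM in EV control libraries, below both controls (difference -0.25, SE 0.112, limma-trend adjusted p = 0.352). PCNA had 192 and 243 FPKM in KO and 235 and 232 FPKM in EV control libraries, and its groups overlapped. FBXO22-AS1 was at 83.6 and 72.1 FPKM in KO and 73.7 and 73.8 FPKM in EV control libraries, above and below its controls. Neither PCNA-AS1 nor FBXO22-AS1 had exons in GENCODE release 29, so the bases they share with other genes were not computed. THAP9-AS1 was nearly level over the libraries, at 36.5 and 35.4 FPKM in KO and 36.3 and 36.8 FPKM in EV control cells. EPB41L4A-AS1 was lower in KO libraries, at 25.2 and 25.3 FPKM, than in EV control libraries, at 29.6 and 29.1 FPKM (difference -0.21, SE 0.0734, limma-trend adjusted p = 0.280).

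No antisense RNA passed the test after adjustment over the 12701 genes. In limma-trend with an adjusted p under 0.05, 0 of 247 were higher and 0 lower in KO cells, and over all genes 7 were higher (0.0551%) and 7 lower (0.0551%). By unadjusted p under 0.05, 14 antisense RNAs were higher, which is 5.67% against 9.23% of all genes. Another 26 were lower at that level, which is 10.5% against 7.22% of all genes. Both KO libraries lay above both controls in 35 members (14.2%, against 26.5% of all genes) and below both in 69 (27.9%, against 25.6%). The median difference over the 247 was -0.08, against 0.00 over all genes tested, with 92 members above 0 and 155 below. These shares describe the members that met the level rule, and the 13 that met it in 1 group alone are among them. By the rule itself, 10 of these 13 were below both controls and 3 above, which enters the counts, the signs and the median. The counts are therefore no test of the members.

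The KO libraries lay further apart than the controls did, and the number of calls depended on which of them was used. The median absolute log2 difference between both KO libraries was 0.223 over the antisense RNAs and 0.170 over all genes, and between both EV control libraries 0.152 and 0.0732. With either KO library left out, more antisense RNAs and more of all genes were called in both directions than with all 4 libraries. In these fits the lone KO library is assumed to vary like the EV controls. Their counts are therefore no result, and appear only within the ranges over left-out libraries in the last section. The difference of GATA2-AS1 was -0.61 without KO replicate 1 and -0.96 without KO replicate 2. That of FOXD3-AS1 was 0.67 without KO replicate 1 and 1.06 without KO replicate 2. With either EV control library left out, 0 antisense RNAs passed in either direction.

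The shares of members above and below both controls were also counted by class of mean level. Under a mean of 2 FPKM, 28 of 84 antisense RNAs (33.3%) were below and 8 (9.52%) above, against 22.0% and 28.7% of all genes at that level. At 2 to 5 FPKM, 18 of 80 (22.5%) were below and 14 (17.5%) above, against 21.8% and 30.5%. At 5 FPKM or more, 23 of 83 (27.7%) were below and 13 (15.7%) above, against 27.0% and 25.3%. The 13 members that met the level rule in 1 group alone were all in the lowest class, 10 of them below and 3 above by the rule itself. Without them, 18 of 71 (25.4%) were below and 5 (7.04%) above in that class. The share above was under that of all genes in each of the 3 classes. At under 2 FPKM, the EV control libraries lay a median of 0.210 apart over antisense RNAs and 0.124 over all genes at that level. The part of this spread in the shares was not tested.

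**Figure D2:**
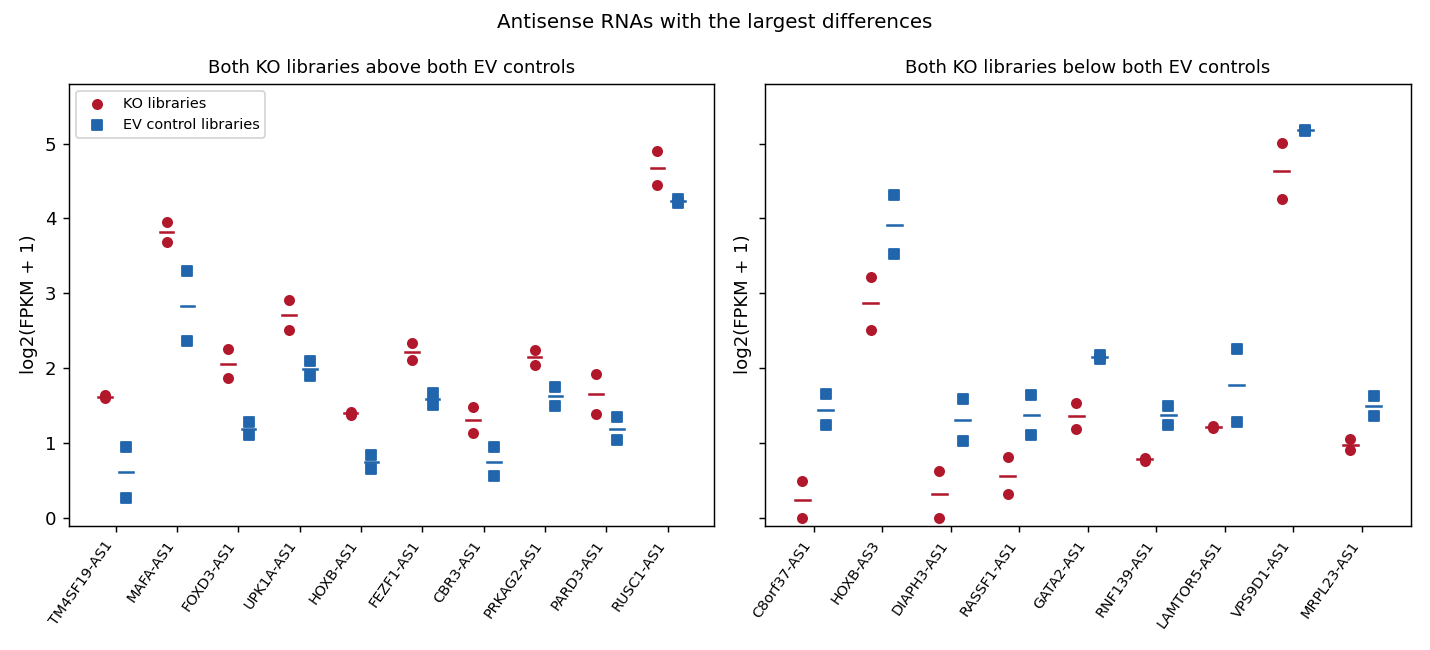
Level of antisense RNAs with the largest differences, 10 above and 9 below the controls, on the log2(FPKM + 1) scale, in the KO libraries (red circles) and EV control libraries (blue squares). Points are libraries and short lines are group means. Most lie under 3 on this scale, and in C8orf37-AS1 and DIAPH3-AS1 1 KO library is at 0. TM4SF19-AS1, HOXB-AS1, CBR3-AS1, C8orf37-AS1, DIAPH3-AS1, RASSF1-AS1 and RNF139-AS1 met the level rule in 1 group alone, which set their side.

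Among the 10 antisense RNAs with the largest differences above both controls, FOXD3-AS1, FEZF1-AS1, MAFA-AS1 and UPK1A-AS1 had partners under the level rule. FOXD3-AS1 had 3.77 and 2.65 FPKM in KO libraries, against 1.44 and 1.15 FPKM in EV control libraries. Both KO libraries were above both controls, with a difference of 0.87 (SE 0.178, limma-trend adjusted p = 0.190, from 0.0167 to 0.9996 over 13 other settings). FOXD3, a forkhead factor of the neural crest with an overlapping promoter window, stayed at 0.156 and 0.152 FPKM in KO and 0.184 and 0.144 FPKM in EV control libraries. FEZF1-AS1 had 4.04 and 3.32 FPKM in KO and 1.85 and 2.18 FPKM in EV control libraries (difference 0.63, SE 0.137, limma-trend adjusted p = 0.198). Its partner FEZF1, a zinc finger factor of the forebrain, was at 0.397 and 0.308 FPKM in KO and 0.150 and 0.109 FPKM in EV control libraries. MAFA-AS1 had 11.8 and 14.5 FPKM in KO and 8.86 and 4.15 FPKM in EV control libraries, with the controls nearly as far apart as the groups (difference 0.99, SE 0.324, limma-trend adjusted p = 0.268). MAFA, a factor of pancreatic beta cells, had 0.974 and 1.57 FPKM in KO and 0.823 and 0.586 FPKM in EV control libraries.

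TM4SF19-AS1 showed the largest positive difference of the 247, 1.01, and met the level rule in the KO libraries alone, so its direction was set by the rule. It had 2.13 and 2.03 FPKM in KO and 0.936 and 0.204 FPKM in EV control libraries, and 1 control rested on about 1.27 estimated fragments. UPK1A-AS1, opposite the gene of a urothelial membrane protein, had 4.71 and 6.50 FPKM in KO and 3.27 and 2.73 FPKM in EV control libraries (difference 0.71). RUSC1-AS1 was the most abundant of the 10, with 20.9 and 28.8 FPKM in KO and 17.5 and 18.2 FPKM in EV control libraries (difference 0.44, SE 0.163). Its partner RUSC1 had 29.5 and 29.8 FPKM in KO and 29.02 and 30.0 FPKM in EV control libraries. The antisense RNA was therefore above both controls while its partner's groups overlapped. PRKAG2-AS1 and PARD3-AS1 had differences of 0.52 and 0.47 and are given with their partners.

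Antisense RNAs below both controls included C8orf37-AS1, with 0.404 and 0 FPKM in KO and 1.36 and 2.14 FPKM in EV control libraries. It met the level rule in the EV control libraries alone, which set its direction, and the difference of -1.20 rested on at most 14.6 estimated fragments in a library. C8orf37, a gene linked to retinal dystrophy, had 3.72 and 3.23 FPKM in KO and 3.60 and 3.84 FPKM in EV control libraries, and its groups overlapped. DIAPH3-AS1 had 0.550 and 0 FPKM in KO and 1.04 and 2.02 FPKM in EV control libraries, also on at most 11.6 estimated fragments and also with the rule met in the controls alone. Its partner DIAPH3, a formin that nucleates actin filaments, overlapped between groups. VPS9D1-AS1 was abundant, at 18.2 and 31.1 FPKM in KO and 35.0 and 35.3 FPKM in EV control libraries (difference -0.54, SE 0.250, limma-trend adjusted p = 0.358). KO replicate 1 set most of this difference, which was -0.17 without that library and -0.91 without KO replicate 2.

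LAMTOR5-AS1 had 1.34 and 1.30 FPKM in KO and 3.80 and 1.44 FPKM in EV control libraries. Its difference was -0.56, and -0.07 without EV control replicate 1.

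Antisense RNAs of the HOX clusters have no single partner gene, and their values are given alone. HOXB-AS1 had 1.60 and 1.68 FPKM in KO and 0.582 and 0.794 FPKM in EV control libraries (difference 0.65), and met the level rule in the KO libraries alone. HOXB-AS3 had 8.31 and 4.70 FPKM in KO and 10.5 and 18.9 FPKM in EV control libraries (difference -1.05, SE 0.351, limma-trend adjusted p = 0.271). The 2 RNAs of the HOXB cluster thus lay on opposite sides of their controls, the side of HOXB-AS1 being set by the rule.

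Among the 206 partner genes that met the level rule, 1 passed the test. In limma-trend with adjusted p under 0.05, 0 were higher and 1 lower, beside 0.0551% of all genes in each direction. At an unadjusted p under 0.05, 14 were higher (6.80%) and 15 lower (7.28%), beside 9.23% and 7.22% of all genes. Both KO libraries were above both controls in 51 partners (24.8%) and below in 58 (28.2%), beside 26.5% and 25.6% of all genes. The median difference was -0.01.

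The partner that passed was GATA2, a zinc finger transcription factor of blood and endothelial development. It had 3.18 and 3.24 FPKM in KO and 10.8 and 12.0 FPKM in EV control libraries. Its KO libraries agreed closely and lay far below both controls, with a difference of -1.56 (SE 0.0981, limma-trend adjusted p = 0.0428). The call ended without a filter on low values (adjusted p = 0.165), with a mean of at least 5 FPKM (0.0970), without small RNA genes (0.0531), without EV control replicate 1 (0.134) and without EV control replicate 2 (0.244). GATA2-AS1 had 1.28 and 1.90 FPKM in KO and 3.54 and 3.35 FPKM in EV control libraries, and averaged 1.59 ± 0.438 FPKM in KO and 3.45 ± 0.132 FPKM in EV control cells (SD, n = 2 each). Its difference was -0.79 (SE 0.157, limma-trend adjusted p = 0.188, from 0.0140 to 0.9996 over 13 other settings), the smallest p of the 247. The RNA lies head to head with GATA2 and shares no exonic base with it in GENCODE release 29, and the promoter windows of both are printed above.

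Other partners with large differences did not pass the test. NR2F1, an orphan nuclear receptor, had 11.4 and 11.1 FPKM in KO and 21.0 and 17.5 FPKM in EV control libraries (difference -0.72, SE 0.112, limma-trend adjusted p = 0.156). NR2F1-AS1 had 6.59 and 3.89 FPKM in KO and 5.63 and 5.48 FPKM in EV control libraries, and its groups overlapped. OTUD6B, RBM12B and ASB16 had differences of -0.47, -0.51 and -0.49, and SEMA3B and FAM222A, at the other end, of 0.40 and 0.39. DICER1, the enzyme that cuts microRNA precursors, had 2.97 and 4.99 FPKM in KO and 5.70 and 6.80 FPKM in EV control libraries (difference -0.57, SE 0.222, limma-trend adjusted p = 0.310). DICER1-AS1 had 2.69 and 4.15 FPKM in KO and 4.50 and 2.92 FPKM in EV control libraries, and its groups overlapped.

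Antisense RNA and partner had differences of the same sign little more often than of opposite signs. Of 211 pairs with both genes tested, 118 (55.9%) had differences of the same sign. The differences had a Spearman correlation of 0.15 over the 211 pairs, which share the same 4 libraries and, in part, exonic sequence. Among 62 pairs that share no exonic base, 33 had the same sign and the correlation was 0.11. Among 144 that share at least 1, 83 had the same sign and it was 0.17. Among 48 pairs with overlapping promoter windows, 23 had the same sign and it was -0.04. In 49 pairs both genes had groups that lay apart: both above the controls in 10, both below in 24, the antisense RNA above and the partner below in 2, and the reverse in 13. Of the antisense RNAs in these pairs, CBR3-AS1, RASSF1-AS1, CCDC183-AS1, PRR7-AS1 and RNF139-AS1 had their direction set by the level rule.

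**Figure D3:**
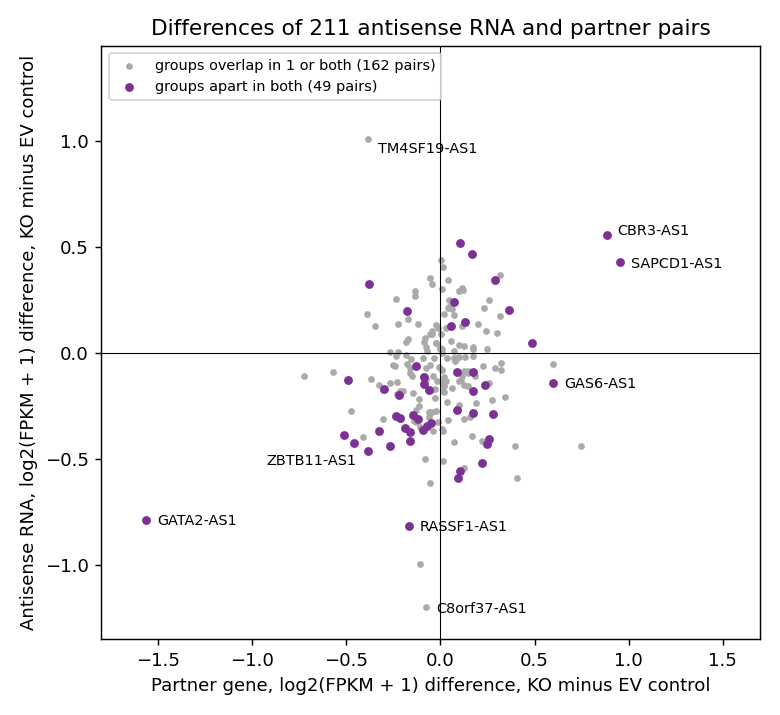
Difference between KO and EV control in the antisense RNA (vertical axis) and in its partner gene (horizontal axis), both on the log2(FPKM + 1) scale, for 211 pairs. Purple points are the 49 pairs in which the KO and EV control libraries lay apart in both genes, and grey points are the other pairs. Most points sit close to 0 on both axes, with GATA2-AS1 at -0.79 and GATA2 at -1.56 standing away at the lower left.

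Both genes were above the controls in 10 pairs, and none of these genes passed the test. CBR3-AS1 had 1.80 and 1.20 FPKM in KO and 0.478 and 0.923 FPKM in EV control libraries (difference 0.56), and met the level rule in the KO libraries alone. CBR3, a carbonyl reductase, had 2.57 and 3.28 FPKM in KO and 1.06 and 1.18 FPKM in EV control libraries (difference 0.88, SE 0.146, limma-trend adjusted p = 0.171). CBR3 lies within the span of CBR3-AS1, and 5.83% of the exonic bases of the RNA were shared. P4HA2-AS1 had 2.32 and 2.59 FPKM in KO and 1.53 and 1.91 FPKM in EV control libraries (difference 0.35). P4HA2, a subunit of the enzyme that hydroxylates collagen prolines, had 20.1 and 20.7 FPKM in KO and 16.6 and 16.5 FPKM in EV control libraries (difference 0.29). Here 65.3% of the exonic bases of the RNA were shared with the partner, so their levels may not be separate measurements.

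SAPCD1-AS1 had 13.5 and 18.7 FPKM in KO and 12.7 and 10.5 FPKM in EV control libraries, and SAPCD1 had 3.60 and 7.51 FPKM in KO and 2.50 and 1.98 FPKM in EV control libraries. KO replicate 2 was the higher in both, and 71.8% of the exonic bases of the RNA were shared. PARD3-AS1 had 2.79 and 1.63 FPKM in KO and 1.05 and 1.54 FPKM in EV control libraries, on at most 10.5 estimated fragments. PARD3, a cell polarity scaffold, had 16.2 and 16.7 FPKM in KO and 14.8 and 14.3 FPKM in EV control libraries. PRKAG2-AS1 had 3.12 and 3.75 FPKM in KO and 2.35 and 1.83 FPKM in EV control libraries. PRKAG2, the gene of an AMP-activated protein kinase subunit, was above its controls by 0.10 only.

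SRP14-AS1, whose window overlaps that of SRP14, had 5.83 and 6.78 FPKM in KO and 4.98 and 5.35 FPKM in EV control libraries (difference 0.24). SRP14, a protein of the signal recognition particle, had 241 and 261 FPKM in KO and 241 and 237 FPKM in EV control libraries (difference 0.07). TPT1-AS1 and TPT1 had differences of 0.15 and 0.13, at 5.85 and 6.16 FPKM in KO and 5.77 and 4.91 FPKM in EV control libraries for the RNA. Of the other pairs, those of LRRC75A and USP2 had differences of 0.05 and 0.20 in the antisense RNA and 0.48 and 0.37 in the partner.

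Both genes were below the controls in 24 pairs, and GATA2 was the only gene among them that passed the test. ZBTB11-AS1 had 1.92 and 1.53 FPKM in KO and 2.93 and 2.57 FPKM in EV control libraries (difference -0.46). ZBTB11, a zinc finger factor, had 7.30 and 7.39 FPKM in KO and 9.37 and 10.5 FPKM in EV control libraries (difference -0.39). LOXL1-AS1 had 2.85 and 3.24 FPKM in KO and 4.55 and 4.41 FPKM in EV control libraries (difference -0.44). LOXL1, an enzyme that cross-links elastin, had 4.56 and 4.79 FPKM in KO and 6.24 and 5.43 FPKM in EV control libraries (difference -0.27).

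In 4 of the 24 pairs more than 50% of the exonic bases of the RNA were shared with the partner. SMAD1-AS1, which lies within the gene of the BMP signal transducer SMAD1, had 7.54 and 6.40 FPKM in KO and 8.53 and 10.03 FPKM in EV control libraries. SMAD1 had 7.95 and 8.07 FPKM in KO and 9.94 and 10.7 FPKM in EV control libraries. The shared part of SMAD1-AS1 was 78.2%, that of RASSF1-AS1 83.4%, that of SMARCA5-AS1 66.7% and that of AGAP2-AS1 57.7%. RASSF1-AS1 had 0.755 and 0.244 FPKM in KO and 2.14 and 1.16 FPKM in EV control libraries (difference -0.82), on 2.48 to 21.9 estimated fragments. RASSF1, a tumour suppressor gene, had 16.5 and 18.7 FPKM in KO and 20.4 and 19.4 FPKM in EV control libraries (difference -0.17). SMARCA5, the ATPase of ISWI chromatin remodellers, had a difference of -0.09, and its antisense RNA one of -0.36.

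COX10-AS1, whose start lies 46 bases from that of COX10, had 2.76 and 2.44 FPKM in KO and 3.08 and 2.88 FPKM in EV control libraries (difference -0.15). COX10, an enzyme of haem A synthesis in mitochondria, had 7.39 and 8.19 FPKM in KO and 8.22 and 8.46 FPKM in EV control libraries (difference -0.09). Both differences were smaller than the spread of all antisense RNAs between the KO libraries, 0.223. NCBP2-AS2, a protein-coding gene in RefSeq, and NCBP2, a subunit of the nuclear cap-binding complex, had differences of -0.11 and -0.09. The remaining 15 pairs were those of AGAP2, ASB16, EXOC3, FAM83H, FBXL19, GABPB1, MCM3AP, NOP14, RBM12B, SLC16A1, STARD7, THAP7, TOPORS, YTHDF3 and ZBED3. In these, the difference of the antisense RNA ran from -0.42 (ZBED3-AS1) to -0.06 (AGAP2-AS1) and that of the partner from -0.51 (RBM12B) to -0.05 (EXOC3).

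In 13 pairs the antisense RNA was below the controls and the partner above. SLC25A25-AS1 had 3.34 and 3.56 FPKM in KO and 5.08 and 4.72 FPKM in EV control libraries (difference -0.41, SE 0.101, limma-trend adjusted p = 0.209). SLC25A25, a mitochondrial carrier of ATP-magnesium and phosphate, had 9.30 and 9.57 FPKM in KO and 7.24 and 8.23 FPKM in EV control libraries (difference 0.26, SE 0.0977, limma-trend adjusted p = 0.299). They lie tail to tail, and 10.4% of the exonic bases of the RNA were shared. MRPL23-AS1 had 1.07 and 0.874 FPKM in KO and 2.10 and 1.57 FPKM in EV control libraries (difference -0.52). MRPL23, a protein of the mitochondrial ribosome, had 73.7 and 90.8 FPKM in KO and 71.0 and 69.3 FPKM in EV control libraries (difference 0.22). KO replicate 2 alone stood well above the controls in MRPL23.

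RNF139-AS1 had 0.748 and 0.700 FPKM in KO and 1.38 and 1.83 FPKM in EV control libraries (difference -0.59). RNF139, a ubiquitin ligase of the endoplasmic reticulum, had 21.3 and 20.9 FPKM in KO and 19.99 and 19.5 FPKM in EV control libraries (difference 0.09). GAS6, a ligand of the AXL family of receptors, had 36.9 and 26.9 FPKM in KO and 19.9 and 21.1 FPKM in EV control libraries (difference 0.60, SE 0.162, limma-trend adjusted p = 0.228). GAS6-AS1 had 13.3 and 12.5 FPKM in KO and 13.8 and 15.0 FPKM in EV control libraries (difference -0.14). GAS6 was thus well above its controls in both KO libraries, with its tail to tail RNA slightly below. The other 9 pairs were those of CCDC183, CEBPA, IDI2, LAMTOR5, MED4, PPP3CB, PRR7, SH3BP5 and USP3, with partner differences from 0.09 (MED4 and USP3) to 0.28 (PRR7).

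In 2 pairs the antisense RNA was above the controls and the partner below. One of them was the pair of KANSL1. KANSL1-AS1 had 1.39 and 1.35 FPKM in KO and 0.874 and 1.28 FPKM in EV control libraries, on fewer than 9 estimated fragments. KANSL1, a subunit of the NSL histone acetyltransferase complex, had 15.1 and 13.3 FPKM in KO and 15.9 and 16.5 FPKM in EV control libraries.

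**Figure D4:**
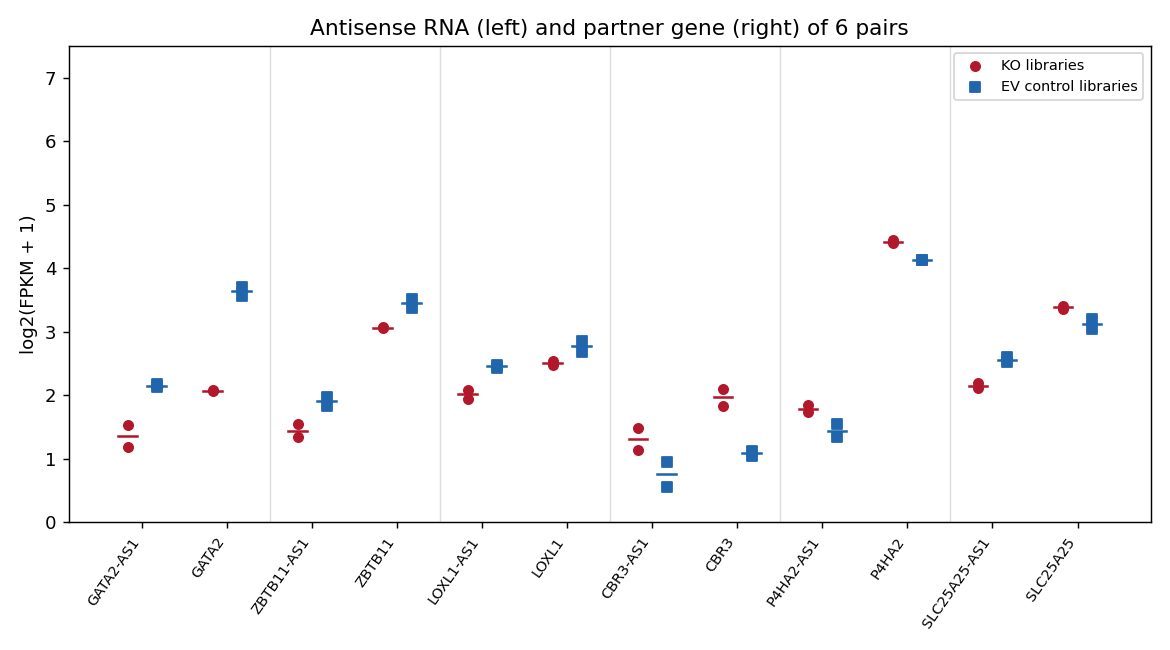
Levels of 6 pairs on the log2(FPKM + 1) scale, the antisense RNA to the left of its partner gene, in KO libraries (red circles) and EV control libraries (blue squares). Points are libraries and short lines are group means. In GATA2, ZBTB11 and LOXL1 both genes are below the controls, in CBR3 and P4HA2 both are above, and in SLC25A25 they lie on opposite sides.

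Of the antisense RNAs, 8 lie on chromosome 14, which also carries C14orf159. DICER1-AS1 and FOXN3-AS1 were lowest in KO replicate 1, at 2.69 and 1.004 FPKM. In KO replicate 2 FOXN3-AS1 had 2.28 FPKM, against 1.89 and 2.54 FPKM in EV control libraries. SLC25A21-AS1 had 0.746 and 0.588 FPKM in KO and 1.36 and 1.37 FPKM in EV control libraries, below both controls by the level rule itself. DHRS4-AS1 was also below both, at 8.89 and 8.39 FPKM in KO and 9.32 and 9.53 FPKM in EV control libraries. The groups overlapped in the other 6, among them HIF1A-AS2, at 23.1 and 17.4 FPKM in KO and 18.1 and 20.4 FPKM in EV control libraries, and PSMA3-AS1, at 17.6 and 16.02 FPKM in KO and 17.3 and 16.8 FPKM in EV control libraries. ARHGAP5-AS1 and KTN1-AS1 were the remaining RNAs of this chromosome, at 1.08 to 2.37 FPKM in all libraries.

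Orientation towards the partner was set beside the same counts. Of 65 tested pairs that lie head to head and overlap, 25 antisense RNAs (38.5%) were below both controls and 7 (10.8%) above. Of 40 head to head pairs that do not overlap, 9 (22.5%) were below and 6 (15.0%) above. Of 48 tail to tail pairs, 13 (27.1%) were below and 8 (16.7%) above. Of 42 antisense RNAs within the partner, 11 (26.2%) were below and 3 (7.14%) above, and of 11 that contain the partner, 4 were below and 1 above. Members whose direction was set by the level rule are among the counts of these classes. They include DIAPH3-AS1 and RASSF1-AS1, within the partner and below, and C8orf37-AS1 and CBR3-AS1, which contain the partner. The background is 25.6% below and 26.5% above, and differences between these classes were not tested.

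The genes that turn over antisense RNA or handle double-stranded RNA did not pass the test. Of 21 genes of the nuclear exosome and its adaptors, 0 were called in either direction by adjusted p in limma-trend, 1 was lower (4.76%, against 7.22% of all genes) and 0 higher (against 9.23%) by unadjusted p under 0.05. Both KO libraries lay below both controls in 6 (28.6%, against 25.6% of all genes) and above in 0 (against 26.5%). DIS3L, a cytoplasmic exosome nuclease, had 11.6 and 11.2 FPKM in KO and 13.1 and 14.5 FPKM in EV control libraries (difference -0.26). The nuclear nuclease DIS3 and the helicase SKIV2L2, which feeds RNA to the exosome, had differences of -0.22 and -0.20. Of 17 genes of nonsense-mediated and cytoplasmic decay, 0 were called by adjusted p, and 4 were lower (23.5%, against 7.22% of all genes) and 0 higher by unadjusted p under 0.05. In this list 10 lay below both controls (58.8%, against 25.6% of all genes) and 1 above (5.88%, against 26.5%). The helicase UPF1 had 24.6 and 25.2 FPKM in KO and 29.2 and 29.5 FPKM in EV control libraries (difference -0.23).

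Of 10 genes of double-stranded RNA editing and binding, 0 were called by adjusted p in limma-trend, and 3 were lower (30%, against 7.22% of all genes) and 1 higher (10%, against 9.23%) by unadjusted p under 0.05. In this list 6 lay below both controls (60%, against 25.6% of all genes) and 2 above (20%, against 26.5%). EIF2AK2, the kinase activated by double-stranded RNA, had 7.82 and 6.95 FPKM in KO and 9.79 and 10.3 FPKM in EV control libraries (difference -0.40, SE 0.0970, limma-trend adjusted p = 0.209). ADAR, which edits adenosine in double-stranded RNA, had 54.6 and 48.0 FPKM in KO and 61.2 and 61.7 FPKM in EV control libraries (difference -0.26). The medians of the 3 lists were -0.05, -0.12 and -0.08, against 0.00 over all genes, and their part in the antisense levels was not tested. Among symbols of related classes, those ending in -AS with no digit had 3 of 7 above and 1 below both controls, those ending in -IT 0 of 3 above and 1 below, and the 1 tested symbol ending in -OT was below.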

How the data were processed

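Poly(A) RNA of 4 libraries (2 KO, 2 EV control) was sequenced with a strand-keeping kit, per the labels' protocols. The deposited values are FPKM per gene in 1 table per library, on human build hg19. The submitters' processing notes name Cuffnorm 2.2.1, SAMtools 0.1.19, TopHat2 2.0.13 and Bowtie2 2.2.3, with no role given for each. The sources used here give neither the annotation nor the use of strand in counting, and FPKM depth is known only as a rough estimate from the steps between low values.

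FPKM were transformed to log2(FPKM + 1), and 12701 of 26255 genes with at least 1 FPKM in at least 2 libraries were fitted with limma 3.58.1 in R 4.3.3 (mean-variance trend, group as the only term). Benjamini-Hochberg adjustment ran over all tested genes, with a threshold of 0.05, and differences are KO minus EV control. The fit was tested on simulated data with the same noise in both groups and with changes only in genes at 5 FPKM or more. That setting differs from the wider spread of the KO libraries and does not cover the lower members. Antisense RNAs and partners were matched by symbol; exon overlap came from GENCODE release 29 and promoter windows from RefSeq (GRCh38.p14), read with Python 3.11.15 and pandas 2.3.3, as descriptions only, since the deposited values are on another build. Members, gene lists and tests were chosen with earlier results of these data known. Named were the targeted gene, the 8 most abundant antisense RNAs, up to 10 antisense RNAs and 6 partners per direction with the largest differences among those whose groups lay apart, pairs apart in both genes, members on chromosome 14, the 3 nearest the level rule on each side, their partners, and from each list the 3 genes of smallest p. Other scalings, pseudocounts, filters, fits and left-out libraries were tried. Some genes that this rule names are not reported here.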

Additional observations from a re-analysis of the deposited data

How the results depend on the processing

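In the settings that follow, 0 antisense RNAs were called in either direction under pseudocounts of 0.5 and 0.1, both other filters, median-of-ratios and quantile scaling, limma without the trend or with a robust one, the replicate block, without small RNA genes and without either EV control library. Without a filter on low values, all genes gave 3 calls higher and 3 lower, and partners 0 lower. Of the 669 antisense symbols then tested, 33 were higher and 50 lower by an unadjusted p under 0.05 in limma-trend. Of the 669, 113 lay above both controls and 140 below. The shares of all genes in this setting are not given here, so these counts are no result about antisense RNAs. With fewer genes tested at a mean of at least 5 FPKM, all genes gave 2 calls higher and 0 lower, and partners 0 lower. Among the 83 antisense RNAs then tested, 3 were higher and 7 lower by an unadjusted p under 0.05 in limma-trend. Among 164 partners, 7 were higher at that level. The shares of all genes by unadjusted p in this setting are not given, so those counts are no result about antisense RNAs or partners. The 83 had 13 above both controls and 23 below, as given above beside the shares of all genes at that level. With quantile normalization 4 genes were lower and LRRC75A-AS1 turned to -0.013. Limma without the trend called 3 genes higher. Without small RNA genes, 0 genes were higher, 0 lower and 0 partners lower. The cause of changes with no stated reason was not tested.

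Over 12701 genes, the deviations of same-numbered libraries from their group means had a correlation of -0.00455. With 2 libraries per group the pairs mirror each other, so this cannot tell whether libraries were paired by culture or preparation. With a replicate block, 4 genes were called higher, and 7 partners were higher at an unadjusted p under 0.05.

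With 1 library left out in turn, calls over all genes ranged from 6 to 1381 higher and from 5 to 881 lower. Antisense RNAs ranged from 0 to 13 higher and 0 to 23 lower, and at an unadjusted p under 0.05 from 5 to 32 and from 7 to 58. From 59 to 75 of them were above both controls and from 101 to 123 below, with 1 library fewer to overlap. Partners ranged from 0 to 16 higher and 0 to 15 lower, at an unadjusted p under 0.05 from 2 to 36 and from 2 to 44, and from 63 to 87 above and 64 to 100 below. The upper ends of these ranges came from fits with 1 KO library left out. There the lone KO library is assumed to vary like the EV controls, so those counts are no result. The difference of FBXO22-AS1 ranged from -0.032 without KO replicate 1 to 0.18 without KO replicate 2. A typical member rested on 34.9 estimated fragments per library, and the part of this in the lack of calls was not tested.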
